A study of Bos taurus with 9 samples.

Results

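The 9 interferon-stimulated genes ISG15, MX1, MX2, IFI6, IFIT2, RSAD2, STAT2, IRF9 and USP18 were examined in bovine uterine gland fragments after 5 days of 3D culture. They were taken by symbol, by a rule that used none of their measured values, and all 9 were found among the 20679 genes of the count and TPM tables (TPM is a level adjusted for gene length and scaled to a sum of 1000000 in each library). The 9 RNA-seq libraries fell into 3 groups of 3. Without EGF the fragments formed cysts in Matrigel (CYST). With EGF at 5 ng/ml they formed uterine gland-like (UG-LIKE) structures, either in Matrigel alone (MAT) or in Matrigel to which collagen I had been added at 0.5 mg/ml (MAT + COL). All groups shared growth factor-reduced Matrigel and a medium with BSA, insulin, transferrin, selenite and ascorbic acid, and the described medium held no interferon. The fragments came from abattoir uteri of days 11 to 17 after ovulation without a visible conceptus, and 50 hand-picked fragments were pooled in each tube, so every value is a mean over many fragments. The sample titles number the libraries as replicates 1 to 3 and do not say what a number stands for. The paper reports that its MAT and MAT + COL samples clustered mainly by individual and not by collagen I. In a fit without a block, p-values measure the spread between these libraries. Where a fit takes the replicate number as a block, they measure the spread that remains after differences between the numbers.

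Type I interferons bind a receptor of the chains IFNAR1 and IFNAR2. The kinases JAK1 and TYK2 attached to these chains phosphorylate STAT proteins, and a complex that holds STAT2 and IRF9 switches on interferon-stimulated genes at a promoter motif called the interferon-stimulated response element. In ruminants the elongating conceptus secretes interferon tau, a type I interferon that signals pregnancy to the mother, and the uterine endometrium answers it with strong expression of genes such as ISG15, MX1 and RSAD2. Other type I interferons, such as those made by infected cells, use the same receptor and the same genes.

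CYST 3 stood apart from the other cysts. The summed level of the 9 genes was 213, 178 and 835 TPM in CYST 1, 2 and 3. It was 337, 236 and 261 TPM in MAT 1, 2 and 3, and 369, 248 and 361 TPM in MAT + COL 1, 2 and 3. CYST 3 held the highest level of all 9 libraries for 6 of the 9 genes, and its level over the mean of CYST 1 and 2 was 27.8 times for MX2, 26.1 for ISG15, 17.9 for RSAD2, 7.75 for MX1, 6.20 for USP18, 3.88 for IFI6 and 2.41 for IRF9. The exceptions were STAT2 at 0.80 times and IFIT2 at 0.77 times in TPM. On the normalized counts used for the order below, their log2 differences were 0.003 and -0.05. Among 12858 genes ordered by the log2 difference of CYST 3 from CYST 1 and 2, ISG15 was at rank 30, MX2 at 31 and RSAD2 at 44. IFI44L, an interferon-stimulated gene chosen after its values were seen, was at rank 6. IFI27, an interferon-stimulated gene named for its similar pattern over these libraries, was at rank 7. The comparisons of the 9 genes with CYST are therefore given with and without CYST 3, a choice made after these values were seen. Leaving out the cyst that is highest for most of these genes raises their Log2FC over CYST by itself. The fits of the 9 genes without CYST 3 are thus a description and no separate support.

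Genes outside the interferon response also set CYST 3 apart. VNN2, a pantetheinase and the gene at rank 1, measured 0.62, 1.67 and 398 TPM in CYST 1, 2 and 3 and 389 to 2270 TPM in MAT. PKIA, an inhibitor of protein kinase A, measured 0.26, 0.36 and 33.5 TPM in CYST, 2.23, 5.51 and 33.5 TPM in MAT, and 2.46, 9.25 and 33.7 TPM in MAT + COL. Of the 20 top-ranked genes, 17 were highest in MAT 3 among the MAT libraries and 18 were highest in MAT + COL 3 among the MAT + COL libraries, so replicate 3 shared this set across the groups. The 9 interferon-stimulated genes were not raised together in MAT 3, where their median log2 difference from MAT 1 and 2 was -0.06, and in MAT + COL 3 it was 1.03. Of 267 genes called between MAT and CYST 1 and 2, CYST 3 was nearer to CYST 1 and 2 for 168 and nearer to MAT for 99. These genes were called with CYST 3 left out. The same count was not made for CYST 1 or CYST 2, so the 99 cannot be set against that of another cyst. What set CYST 3 apart was not tested.

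The libraries held 6568968 to 17948600 reads on genes. The 6 epithelial markers, among them EPCAM, KRT8 and CDH1, summed to 19117 to 21878 TPM in CYST, 31192 to 48592 TPM in MAT and 31415 to 42933 TPM in MAT + COL. EPCAM, KRT8 and KRT19 were higher in every EGF library than in every cyst, but CDH1, KRT7 and KRT18 overlapped. KRT18 measured 292 to 698 TPM in CYST and 276 to 865 TPM in the EGF libraries. The 5 gland markers found of 7 differed in level. Over all libraries PAX8 measured 22.0 to 57.7 TPM and ESR1 15.2 to 35.5 TPM. FOXA2 was at 1.31 to 12.4 TPM, PGR at 0.47 to 2.18 TPM and SOX17 at 0 to 0.94 TPM. The 8 stromal markers, such as DCN and COL1A1, summed to 2225, 3045 and 4798 TPM in CYST 1, 2 and 3, to 1191 to 3742 TPM in MAT and to 2197 to 4249 TPM in MAT + COL. The highest sum of each group was that of replicate 3. The stromal markers did not all move together. VIM measured 238 to 312 TPM in CYST and 327 to 810 TPM in the EGF libraries. PDGFRB was at 1.19, 1.03 and 0.80 TPM in CYST 1, 2 and 3. The 10 leukocyte markers summed to 29.0 TPM in CYST 3 against 36.1 and 37.7 TPM in the other cysts. CD79A was at 0 in every library and PTPRC at 1.19 TPM or less, but CD14 measured 13.2 to 45.2 TPM and CD68 2.21 to 10.2 TPM. NKG7 had its highest level of all libraries in CYST 3, at 2.90 TPM. The 5 endothelial markers summed to 15.3 TPM in CYST 3 against 12.8 and 18.4 TPM in the other cysts. The part of these cells in the results was not tested. In such bulk libraries, fewer cells of a type and less RNA per cell cannot be told apart.

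**Figure D1:**
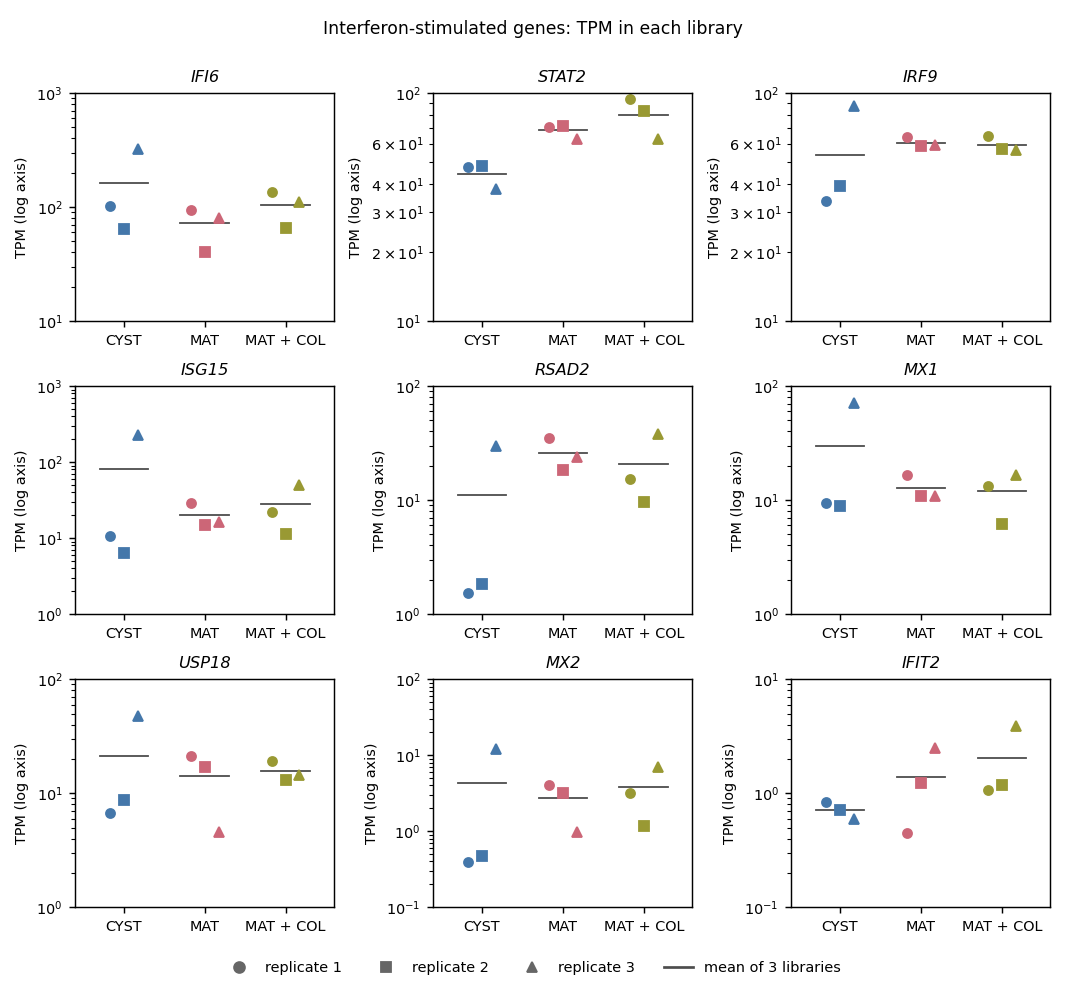
TPM of the 9 interferon-stimulated genes in each library on log axes, ordered by mean level, with one point per library (circle, square and triangle for replicates 1, 2 and 3) and a line at the mean of 3 libraries. CYST 3 lies above the other cysts for 7 genes, whereas STAT2 is lower in all 3 cysts (38.0 to 47.6 TPM) than in all 6 EGF libraries (62.6 to 93.8 TPM).

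By mean TPM over the 9 libraries, IFI6 was the highest of the 9 genes at 113 TPM, followed by STAT2 at 64.3, IRF9 at 57.8, ISG15 at 43.0, RSAD2 at 19.2, MX1 at 18.2, USP18 at 16.95, MX2 at 3.61 and IFIT2 at 1.38 TPM. Neighbours in this order overlapped across the libraries, since ISG15 alone ranged from 6.45 to 225 TPM. STAT2 varied least, with a highest level 2.47 times the lowest, followed by IRF9 at 2.62 times, and ISG15 varied most at 34.9 times.

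STAT2 and IRF9 are parts of the transcription factor complex that type I interferon assembles. STAT2 (ENSBTAG00000004380, chr5:56997911-57010626, plus strand, ARS-UCD2.0) measured 47.4, 47.6 and 38.0 TPM in CYST 1, 2 and 3, 71.3, 71.9 and 62.6 TPM in MAT, and 93.8, 83.2 and 62.8 TPM in MAT + COL. All 6 libraries with EGF lay above all 3 cysts. The Log2FC was 0.62 for MAT over CYST (SE 0.15, 95% interval 0.28 to 0.97, edgeR adjusted p = 0.0719) and 0.78 for MAT + COL over CYST (SE 0.16, 0.41 to 1.15, adjusted p = 0.0579). Neither passed 0.05 in the fit without a block. With the replicate number as a block, STAT2 rose in MAT (Log2FC 0.62, edgeR adjusted p = 0.0458) and in MAT + COL (0.77, adjusted p = 0.0466). Over 8 alternatives that kept all libraries, the adjusted p ranged from 0.00796 to 0.152 for MAT and from 0.00147 to 0.127 for MAT + COL. Within same-numbered pairs, the ratio of MAT to CYST was 1.504, 1.510 and 1.646. STAT2 did not carry the CYST 3 pattern, and its Log2FC without CYST 3 was 0.62 for MAT (adjusted p = 0.111) and 0.78 for MAT + COL (adjusted p = 0.0819). The gene overlaps IL23A on the opposite strand by 1239 bases, but IL23A held at most 4 reads in any library.

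IRF9 (ENSBTAG00000005816, chr10:20986949-20991549, minus strand) measured 33.4, 39.1 and 87.5 TPM in CYST, 64.3, 58.4 and 59.1 TPM in MAT, and 64.7, 57.0 and 56.3 TPM in MAT + COL. CYST 1 and 2 were below, and CYST 3 above, all 6 EGF libraries. The Log2FC was 0.10 for MAT (SE 0.42, adjusted p = 0.924) and 0.01 for MAT + COL (SE 0.43, adjusted p = 0.988). Without CYST 3 it was 0.83 for MAT (SE 0.21, adjusted p = 0.0853) and 0.75 for MAT + COL (SE 0.18, adjusted p = 0.0891).

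ISG15 and USP18 form an opposed pair. ISG15 is a ubiquitin-like protein that is attached to other proteins, and USP18 removes it and also binds IFNAR2 to dampen the receptor. ISG15 (ENSBTAG00000014707, chr16:51464070-51465109, minus strand) measured 10.8, 6.45 and 225 TPM in CYST, 29.4, 14.8 and 16.1 TPM in MAT, and 22.4, 11.5 and 50.2 TPM in MAT + COL. All 6 EGF libraries lay between the other cysts and CYST 3. The Log2FC of MAT over CYST was -2.23 with CYST 3 (SE 1.27, 95% interval -5.16 to 0.70, adjusted p = 0.368) and 1.30 without it (SE 0.59, adjusted p = 0.268). For MAT + COL over CYST it was -1.74 with CYST 3 (SE 1.33, adjusted p = 0.497) and 1.78 without it (SE 0.76, adjusted p = 0.240). DESeq2 gave no p-value for ISG15 in either comparison. The direction of the difference thus rested on that library.

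USP18 (ENSBTAG00000016661, chr5:75988869-76019180, plus strand) measured 6.70, 8.72 and 47.8 TPM in CYST, 21.3, 16.9 and 4.54 TPM in MAT, and 19.2, 12.9 and 14.5 TPM in MAT + COL. MAT 3 held the lowest level of the 9 libraries, and CYST 3 of the same number the highest. The Log2FC was -0.74 for MAT (SE 0.88, adjusted p = 0.690) and -0.64 for MAT + COL (SE 0.77, adjusted p = 0.683). Without CYST 3 it was 0.95 for MAT (adjusted p = 0.434) and 1.04 for MAT + COL (adjusted p = 0.127).

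RSAD2 encodes viperin, an enzyme that makes a chain-terminating nucleotide against viral RNA synthesis. RSAD2 (ENSBTAG00000016061, chr11:90038994-90056291, minus strand) measured 1.52, 1.83 and 30.0 TPM in CYST, 35.1, 18.3 and 23.8 TPM in MAT, and 15.3, 9.62 and 37.7 TPM in MAT + COL. CYST 1 and 2 were the lowest libraries of the series, with 15 and 35 reads against 196 to 724 in the EGF libraries, while CYST 3 reached the EGF range. The Log2FC of MAT over CYST was 1.01 in all 6 libraries (SE 1.07, adjusted p = 0.646). Without CYST 3, a fit chosen after seeing the data, RSAD2 rose in MAT by a Log2FC of 4.01 (SE 0.42, edgeR adjusted p = 0.0115). RSAD2 was the only one of the 9 genes to pass the test there, whereas its 8 alternatives that kept all libraries gave adjusted p from 0.141 to 0.721. In MAT + COL the Log2FC was 0.71 (SE 1.17, adjusted p = 0.775) with CYST 3 and 3.70 (SE 0.74, adjusted p = 0.0653) without it. Within same-numbered pairs, the ratio of MAT to CYST was 23.0, 9.995 and 0.79.

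MX1 and MX2 are dynamin-like GTPases that trap viral components, and they lie next to each other on chromosome 1. MX1 (ENSBTAG00000030913, chr1:141668299-141716102, plus strand) measured 9.40, 8.96 and 71.2 TPM in CYST, 16.5, 10.97 and 10.8 TPM in MAT, and 13.4, 6.12 and 16.7 TPM in MAT + COL. MX2 (ENSBTAG00000008471, chr1:141621131-141658223, plus strand) measured 0.40, 0.47 and 12.1 TPM in CYST, 4.10, 3.18 and 0.99 TPM in MAT, and 3.18, 1.18 and 6.97 TPM in MAT + COL. For MX2 all 6 EGF libraries lay above CYST 1 and 2 and below CYST 3. For MX1 this held for the 3 MAT libraries, and MAT + COL 2 lay below every cyst.

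The Log2FC of MX1 in MAT over CYST was -1.40 (SE 0.84, adjusted p = 0.393) and 0.56 without CYST 3 (SE 0.27, adjusted p = 0.293). That of MX2 was -0.87 (SE 1.26, adjusted p = 0.754) and 2.72 without CYST 3 (SE 0.77, adjusted p = 0.108). In MAT + COL over CYST the Log2FC without CYST 3 was 0.44 for MX1 (adjusted p = 0.603) and 3.17 for MX2 (adjusted p = 0.116), against -1.51 (adjusted p = 0.382) and -0.40 (adjusted p = 0.896) with it. MX1 overlaps TMPRSS2 on the opposite strand by 2932 bases, and without a stated strand setting their reads cannot be told apart there. TMPRSS2 measured 70.1 TPM in CYST 3, below CYST 1 and 2 at 123 and 103 TPM.

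IFI6, a small membrane protein that restrains cell death and viral replication, measured 103, 63.8 and 323 TPM in CYST, 94.5, 40.2 and 80.7 TPM in MAT, and 136, 65.5 and 112 TPM in MAT + COL (ENSBTAG00000007554, chr2:125662166-125665795, plus strand). It was the only one of the 9 genes with lower TPM in MAT than in CYST in all 3 same-numbered pairs, at ratios of 0.92, 0.63 and 0.25. The Log2FC of MAT over CYST was -1.31 (SE 0.67, adjusted p = 0.312) and -0.13 without CYST 3 (SE 0.41, adjusted p = 0.905). For MAT + COL over CYST it was -0.83 (SE 0.65, adjusted p = 0.508) and 0.35 without CYST 3 (SE 0.37, adjusted p = 0.627).

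IFIT2, which belongs to a family of RNA-binding proteins that limit translation of viral RNA, was the lowest of the 9 genes (ENSBTAG00000034918, chr26:11028879-11037691, plus strand). It measured 0.83, 0.71 and 0.59 TPM in CYST, 0.45, 1.24 and 2.49 TPM in MAT, and 1.07, 1.17 and 3.87 TPM in MAT + COL, from 5 to 109 reads. CYST 3 was the lowest cyst in TPM but not on normalized counts, and MAT 3 and MAT + COL 3 were the highest libraries of their groups. The 3 MAT + COL libraries lay above the 3 cysts, with a Log2FC of 1.502 (SE 0.68, 95% interval -0.08 to 3.08, adjusted p = 0.253). For MAT over CYST it was 1.00 (SE 0.72, adjusted p = 0.475). Without CYST 3 it was 1.48 (SE 0.82, adjusted p = 0.349) in MAT + COL and 0.98 (SE 0.88, adjusted p = 0.589) in MAT. Its neighbour IFIT3, chosen after its values were seen, measured 0.62, 0.21 and 9.30 TPM in CYST.

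**Figure D2:**
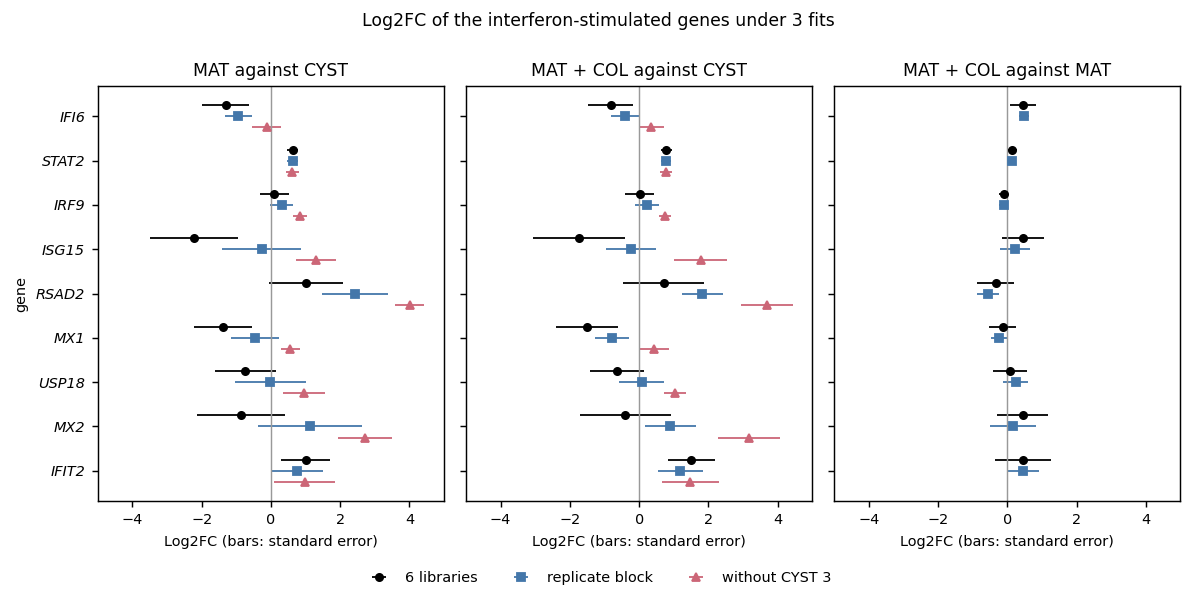
Log2FC with standard errors (horizontal bars) of the 9 genes in the 3 comparisons, from the fit of 6 libraries (black circles), with the replicate number as a block (blue squares) and without CYST 3 (red triangles). ISG15 moves from -2.23 to 1.30 and RSAD2 from 1.01 to 4.01 in MAT against CYST when CYST 3 is left out, while STAT2 stays at 0.62.

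All 9 genes passed the filter on low counts in each comparison, and the 2 comparisons with CYST share the same cysts. In MAT against CYST, edgeR called 0 of the 9 genes at an adjusted p under 0.05, beside 1.79% of the 12074 genes tested. At an unadjusted p under 0.05 STAT2 alone passed, beside 20.7% of all genes. DESeq2 also called STAT2 alone, beside 10.6%, but gave no p-value for ISG15 and MX1 in this comparison. With the block, 1 of 9 was called (STAT2) beside 10.6% of all genes. The median Log2FC of the 9 genes was -0.74, with 4 above 0 and 5 below, against 0.01 over all genes. Without CYST 3, left out after seeing the data, the median was 0.95, with 8 of 9 above 0, against 0.02 over all genes. In that fit 1 of 9 was called (RSAD2) beside 2.14% of all genes. STAT2 was the only one of the 9 whose groups did not overlap. It was higher in MAT, as were 11.9% of all genes, and 11.8% of all genes were lower without overlap.

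In MAT + COL against CYST, edgeR called 0 of the 9 genes, beside 1.49% of 12509. STAT2 passed at an unadjusted p under 0.05, beside 21.7% of all genes, and DESeq2 called STAT2 alone, beside 12.2%. With the block, 1 of 9 was called (STAT2), beside 5.26%. The median was -0.40 with CYST 3 and 1.04 without it, with 4 and 9 of the 9 genes above 0, against 0.04 and 0.05 over all genes. Without CYST 3, edgeR called 0 of 9 beside 0.877% of all genes. STAT2 and IFIT2 were higher in MAT + COL without overlap, beside 14.3% of all genes, and none of the 9 was lower without overlap, beside 10.3%.

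When replicate 3 was left out of both groups and the replicate number kept as a block, an alternative chosen after seeing the data, RSAD2, MX2, USP18, IRF9 and STAT2 were called as higher in MAT. Their Log2FC was 3.94 (edgeR adjusted p = 0.000630), 3.10 (adjusted p = 0.0129), 1.37 (adjusted p = 0.0291), 0.84 (adjusted p = 0.0306) and 0.67 (adjusted p = 0.0289). These 5 of 9 stood beside 15.3% of all genes. In MAT + COL, RSAD2, STAT2 and IRF9 were called, at 2.81 (adjusted p = 0.00448), 0.88 (adjusted p = 0.00787) and 0.74 (adjusted p = 0.0412), 3 of 9 beside 19.1%. These fits rest on 2 libraries a group. They too leave out the cyst that is highest for most of the 9 genes, which raises their Log2FC over CYST by itself. The counts of calls are thus a description and no separate support.

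Collagen I left no called difference among the 9 genes. In MAT + COL against MAT, edgeR called 0 of the 9 genes and 0 of the 12470 genes tested (0%), each adjusted p of the 9 genes was 1, and none had an unadjusted p under 0.05, beside 0.409% of all genes. DESeq2 also called 0 genes, and so did edgeR with the block. The groups overlapped for all 9 genes, beside 2.75% of all genes higher and 0.818% lower without overlap. The Log2FC ranged from -0.33 for RSAD2 to 0.46 for IFIT2, with a median of 0.14. The narrowest 95% intervals were those of IRF9, -0.45 to 0.23, and STAT2, -0.22 to 0.49, and the widest that of MX2, -1.29 to 2.19, so that changes of several times in MX2 were not detectable at this number of libraries. IFI6 was higher with collagen I in all 3 same-numbered pairs, at 1.44, 1.63 and 1.38 times (block Log2FC 0.49, SE 0.15, unadjusted p = 0.00778, edgeR adjusted p = 0.955, beside 4.96% of all genes under an unadjusted 0.05).

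MAT + COL 3 differed from its group for part of the genes. Its level over the mean of MAT + COL 1 and 2 was 2.97 times for ISG15, 3.03 for RSAD2, 3.20 for MX2 and 3.45 for IFIT2, but 0.91 for USP18 and 0.71 for STAT2. Without MAT + COL 3, the Log2FC over MAT turned from 0.46 to -0.36 for ISG15, from 0.45 to -0.45 for MX2 and from 0.46 to -0.46 for IFIT2. RSAD2 was lower with collagen I in pairs 1 and 2, at 0.44 and 0.53 times, and higher in pair 3 at 1.59 times. With replicate 3 left out of both groups and the block kept, RSAD2 fell by a Log2FC of -1.15 (edgeR adjusted p = 0.0317), 1 of 9 genes beside 0.368% of all genes, from 2 libraries a group. Leaving out the pair that was higher lowers this Log2FC by itself.

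Upstream of the 9 genes, 9 interferon receptor chains and kinases were measured. All 9 had a positive Log2FC in MAT over CYST (median 0.69, against 0.01 over all genes) and in MAT + COL over CYST (median 0.66, against 0.04). Without CYST 3, 8 of 9 were positive in each comparison (medians 0.85 and 0.64, against 0.02 and 0.05), and IFNLR1, a chain of the interferon lambda receptor, was negative, as it was with the block (-0.064 and -0.0047). IFNAR1, a chain of the type I interferon receptor, measured 61.0, 82.3 and 61.1 TPM in CYST, 108, 160 and 129 TPM in MAT, and 139, 158 and 127 TPM in MAT + COL. Its groups did not overlap, and CYST 3 did not stand apart. IFNAR1 rose in MAT + COL by a Log2FC of 0.99 (SE 0.17, edgeR adjusted p = 0.0439), a call that was lost on leaving out any 1 of the 6 libraries. In MAT it was 0.96 (SE 0.21, adjusted p = 0.0601), and with the block IFNAR1 rose in both (adjusted p = 0.0149 and 0.0266). Without CYST 3 its Log2FC was 0.99 in MAT (adjusted p = 0.0841) and 1.02 in MAT + COL (adjusted p = 0.0629).

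**Figure D3:**
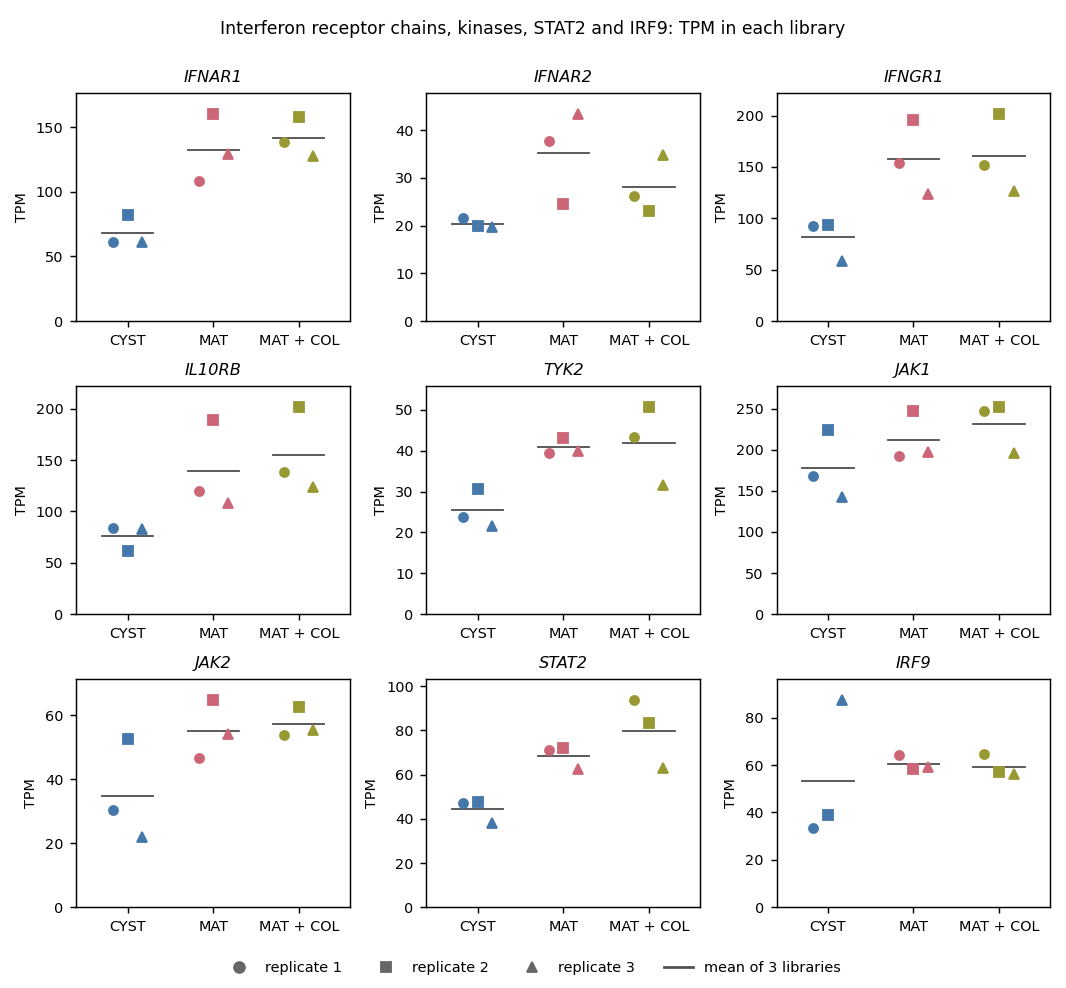
TPM of interferon receptor chains (IFNAR1, IFNAR2, IFNGR1, IL10RB), kinases (TYK2, JAK1, JAK2) and the factors STAT2 and IRF9 in each library, with linear axes from 0, one point per library and a line at the mean of 3. IFNAR1, IFNAR2, IFNGR1, IL10RB, TYK2 and STAT2 are lower in the 3 cysts than in the 3 MAT libraries, whereas JAK1, JAK2 and IRF9 overlap between these groups. Of all genes tested, 11.9% are higher in MAT without overlap.

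IFNGR1, a chain of the interferon gamma receptor, measured 92.2, 93.4 and 58.4 TPM in CYST and 124 to 202 TPM in the 6 EGF libraries. It rose with the block in MAT (Log2FC 0.95, edgeR adjusted p = 0.0174) and in MAT + COL (0.92, adjusted p = 0.0401). TYK2, the kinase of IFNAR1, measured 23.8, 30.7 and 21.5 TPM in CYST, and 39.4, 43.1 and 39.9 TPM in MAT. It rose in MAT with the block (0.69, adjusted p = 0.0378). For IFNAR2 the Log2FC in MAT was 0.78 (adjusted p = 0.153), for IL10RB 0.83 (adjusted p = 0.142), for JAK2 0.69 (adjusted p = 0.200), for IFNGR2 0.60 (adjusted p = 0.505), for JAK1 0.26 (adjusted p = 0.497) and for IFNLR1 0.09 (adjusted p = 0.946), and none of these 6 was called with the block. With the block, 3 of the 9 receptors and kinases were called in MAT and 2 in MAT + COL, beside 10.6% and 5.26% of all genes. Without CYST 3 the Log2FC in MAT was 0.85 for IFNGR1 (adjusted p = 0.10) and 0.68 for TYK2 (adjusted p = 0.115). Of the 9 receptors and kinases, 0 were called without CYST 3 in either comparison, beside 2.14% of all genes in MAT and 0.877% in MAT + COL.

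The interferons that had an entry were hardly detected. No entry named as an interferon lambda or as IFNE was found, so the levels of these interferons are not known. Of 15 interferon ligand entries in the tables, 13 had no read in any library. IFNT2, an interferon tau gene, had 0 reads in the 3 cysts and in MAT 1, and 4, 1, 3, 2 and 2 reads in MAT 2, MAT 3 and MAT + COL 1, 2 and 3. The interferon tau entry IFN-tau-c1 had 2 reads in MAT + COL 2 alone. The genes of this family are near-identical copies, so the assignment of single reads among them is uncertain. A count of 0 allows up to 3 reads, or 0.167 to 0.457 counts per 1000000 reads on genes, a limit that covers counting error only. CYST 3, with the highest ISG15, had 0 reads on all 15 entries.

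Of 108 further interferon gene symbols listed, 85 were found. The list held aliases of the same gene, such as RIGI and DDX58, and family names, so fewer genes than symbols were missing. In MAT against CYST 70 were tested and edgeR called 0, with 12 at an unadjusted p under 0.05, beside 1.79% and 20.7% of all genes. The block called 6 and DESeq2 6, each beside 10.6% of all genes, so the calls among the further genes were no more frequent than among all genes. The 5 that rose with the block were IFNAR1, IFNGR1, TYK2, STING1 and TNFSF10, and PARP14 fell. STING1, the adaptor of cytosolic DNA sensing, measured 4.795, 3.49 and 5.76 TPM in CYST and 11.3, 8.93 and 17.9 TPM in MAT (block Log2FC 1.40, edgeR adjusted p = 0.0252). TNFSF10, the death ligand TRAIL, measured 3.47, 4.42 and 3.51 TPM in CYST and 5.29, 10.5 and 11.1 TPM in MAT (block Log2FC 1.18, adjusted p = 0.0325). PARP14, an ADP-ribosyltransferase, measured 26.4, 27.4 and 26.9 TPM in CYST and 16.9, 15.6 and 16.9 TPM in MAT (block Log2FC -0.72, adjusted p = 0.0388). Without CYST 3 their Log2FC in the fit without a block was 1.72 (adjusted p = 0.0918), 1.29 (adjusted p = 0.127) and -0.61 (adjusted p = 0.141). In that fit 0 of the 70 were called, beside 2.14% of all genes.

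In MAT + COL against CYST 72 of the further genes were tested and IFNAR1 alone was called, whereas the block called 5 and DESeq2 7, beside 1.49%, 5.26% and 12.2% of all genes. With the block IFNAR1, IFNGR1, STING1 (Log2FC 1.45, edgeR adjusted p = 0.0468) and TNFSF10 (1.32, adjusted p = 0.0351) rose. IFIT1, an RNA-binding protein of the IFIT family, fell by a block Log2FC of -1.38 (edgeR adjusted p = 0.0410). It measured 2.83, 1.39 and 20.3 TPM in CYST and 0.96, 0.66 and 8.39 TPM in MAT + COL, highest in replicate 3 of both groups. IFIT1 was thus lower in MAT + COL at each replicate number. Its Log2FC without CYST 3 was 0.77 (adjusted p = 0.747), in a fit that keeps MAT + COL 3 and has no block. With replicate 3 left out of both groups and the block kept, it was -1.33 (edgeR adjusted p = 0.12). In MAT + COL against MAT 69 were tested, and edgeR with and without the block and DESeq2 called 0, with 0 at an unadjusted p under 0.05 without the block.

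**Figure D4:**
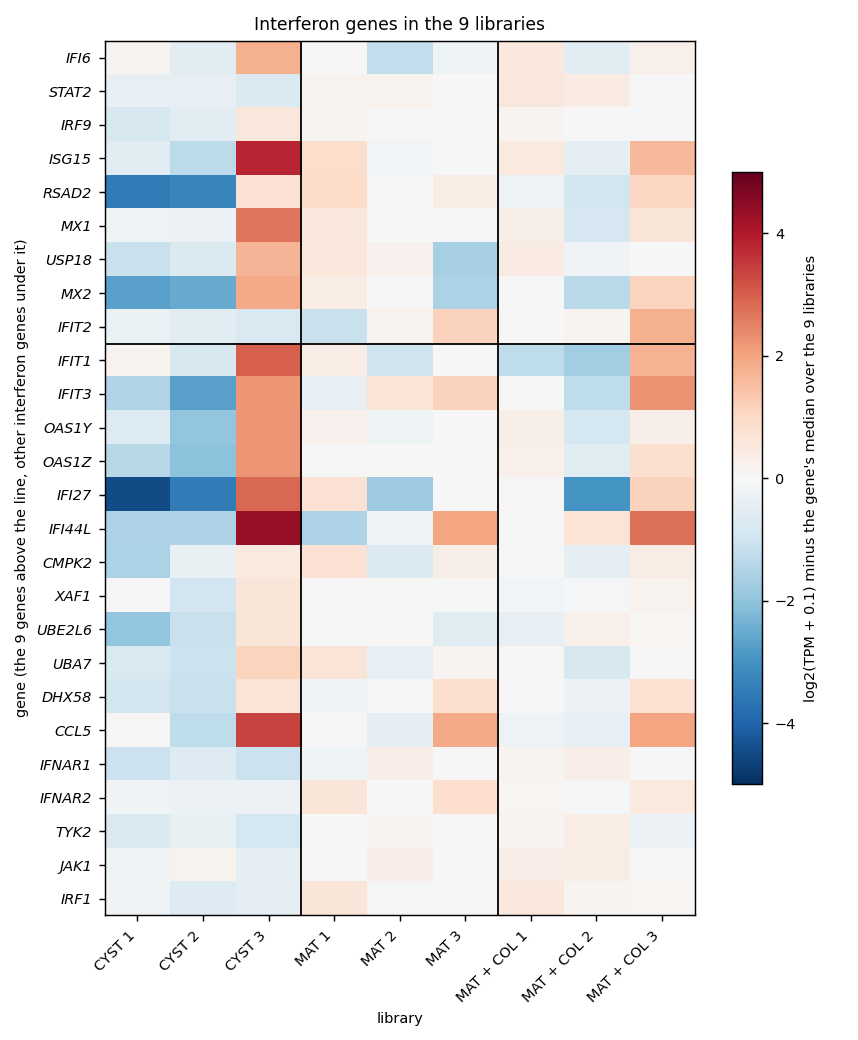
Heat map of log2(TPM + 0.1) minus the gene's median over the 9 libraries (colour, from -5 to 5) for the 9 genes (above the line) and 17 other interferon genes (under it, IFIT3, IFI44L, CMPK2, XAF1 and UBE2L6 among them chosen after their values were seen), with the libraries in columns. ISG15 is 3.80 above its median in CYST 3 and RSAD2 is at -3.50 and -3.25 from it in CYST 1 and 2, whereas IFNAR1 and TYK2 show no rise in CYST 3.

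Of 15904 genes with reads, 6.94% had their highest TPM in CYST 3. Of the 26 antiviral effectors found, 8 were highest in CYST 3 among the 9 libraries, as were 4 of 10 RNA and DNA sensors, 3 of 8 signal transducers and regulatory factors, 2 of 4 genes of ISG15 conjugation, 2 of 7 negative regulators, 2 of 11 genes of class I antigen presentation, 2 of 6 chemokines and 0 of 9 receptors and kinases. Differences between these groups of genes were not tested. OAS1Y, an oligoadenylate synthetase whose near-identical copy OAS1Z makes its reads uncertain, measured 44.6, 18.5 and 339 TPM in CYST and 39.7 to 89.9 TPM in the EGF libraries. The chemokine CCL5 measured 16.3, 6.38 and 163 TPM in CYST, 57.0 TPM in MAT 3 and 60.9 TPM in MAT + COL 3, against 11.4 to 15.5 TPM in the other 4 EGF libraries. UBA7, the enzyme that activates ISG15, measured 7.19, 5.84 and 27.0 TPM in CYST and 7.02 to 19.2 TPM with EGF.

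The genes of highest mean level in the remaining groups were not called in any comparison, with or without the block. In MAT over CYST the Log2FC was 0.60 for IRF1 (adjusted p = 0.207), 0.41 for IFIH1 (adjusted p = 0.444), -0.34 for EIF2AK2 (adjusted p = 0.615), 0.12 for SHISA5 (adjusted p = 0.877), -0.11 for HERC6 (adjusted p = 0.872) and 0.34 for PTPN6 (adjusted p = 0.402). The antigen presentation genes TAPBP, PSMB8 and PSME1 were at 0.07, -0.06 and -0.15 (adjusted p = 0.894, 0.886 and 0.690). The sensor DHX58 was at 0.42 (adjusted p = 0.734), the ISG15 ligase HERC5 at 0.0099 (adjusted p = 0.995), LGALS3BP at -0.0039 (adjusted p = 0.995), PTPN2 at -0.17 (adjusted p = 0.613) and TRIM24 at 0.61 (adjusted p = 0.406). The chemokines CCL2, CCL5 and CCL8 were at -1.04, -1.30 and -2.09 (adjusted p = 0.240, 0.588 and 0.555).

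Without CYST 3, none of these genes was called in MAT over CYST, beside 2.14% of all genes, and 5 of them changed sign. CCL5 went from -1.30 to 1.43 (adjusted p = 0.390), EIF2AK2 from -0.34 to 0.14 (adjusted p = 0.791), HERC6 from -0.11 to 0.29 (adjusted p = 0.509), LGALS3BP to 0.19 (adjusted p = 0.605) and PSMB8 to 0.062 (adjusted p = 0.905). DHX58 went from 0.42 to 1.42 (adjusted p = 0.0906), SHISA5 from 0.12 to 0.61 (adjusted p = 0.210) and HERC5 to 0.41 (adjusted p = 0.779). The others were at 0.69 for IRF1, 0.69 for IFIH1, 0.44 for PTPN6, 0.21 for TAPBP, -0.048 for PSME1, -0.16 for PTPN2, 0.39 for TRIM24, -1.34 for CCL2 and -2.62 for CCL8 (adjusted p from 0.127 to 0.918).

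The 9 genes did not vary as a single block over the libraries. Pearson's r of a gene's log2 level with the mean z-score of the other 8, over 9 libraries, was 0.94 for MX2, 0.91 for IRF9, 0.90 for ISG15, 0.86 for RSAD2, 0.75 for MX1, 0.71 for USP18 and 0.59 for IFI6, but 0.07 for both IFIT2 and STAT2. Without CYST 3, r was 0.69 for STAT2, 0.35 for IFIT2 and 0.26 for IFI6, and 0.94 for RSAD2. Beyond the 9, the genes whose log2 level was most like their mean z-score were OAS1Z (r = 0.98), ZNF772 (0.97), PSMF1 (0.97), ENSBTAG00000037527 (0.95), LGALS3BP (0.95), IFI27 (0.94), ACAA2 (0.94), DYNLT5 (0.93), OAS1Y (0.92) and CSNK1G3 (0.92). Of these 10, OAS1Z, LGALS3BP, IFI27 and OAS1Y are on the interferon list. Without the 2 libraries farthest from the median score, CYST 2 and CYST 3, r for these 10 genes over 7 libraries was 0.83 to 0.97. These values describe 9 libraries that share replicate numbers and unequal depths.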

How the data were processed

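RNA-seq of 9 libraries, 3 each of CYST, MAT and MAT + COL, was analysed. The authors aligned paired-end reads of 150 bp, made with a SMART-Seq kit, to the bovine genome ARS-UCD2.0 with CLC Genomics Workbench at its default settings. The authors deposited counts, which are whole reads per gene without normalization, and TPM of the same 20679 genes. The strand setting and the annotation release are not given in the sources used here, and positions are those of the deposited tables. Groups and replicate numbers came from the labels, and the doses of EGF and collagen I from the methods of the study. All per-sample columns were used.

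Counts were tested in R 4.3.3 with edgeR 4.0.16: filterByExpr (minimum count of 10), TMM, and the quasi-likelihood fit and test (glmQLFit, glmQLFTest) for the 6 libraries compared, two-sided, with Benjamini-Hochberg adjustment over all genes tested and a threshold of 0.05. An adjusted p without a named tool is from this test. Log2FC is the group named before "over" or "against" minus the other. TPM, which adjusts for gene length, was used for levels and for comparing genes. Alternatives were the replicate block, RLE normalization, no filter, a fit of all 9 libraries, DESeq2 1.42.0, limma 3.58.1 on log2(TPM + 1) and log2(TPM + 0.1), genes at 1 TPM in 3 libraries or unfiltered, leaving out each library, and the study's DEG criteria (adjusted p under 0.05, a Log2FC over 1 in size and a TPM over 1). The script was tested on simulated data. Genes in the 20 top ranks of CYST 3 were ordered by log2 CPM with a prior count of 2.

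Deviations from the group means correlated within every same-numbered pair. The correlations were 0.33, 0.43 and 0.39 for MAT with CYST, 0.47, 0.62 and 0.69 for MAT + COL with MAT, and 0.28, 0.35 and 0.35 for MAT + COL with CYST. The block therefore takes the numbers as pairs. The main fit, which gave the values printed without a named setting, leaves this pairing out. The block is printed where it changed a call.

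The 9 genes and the lists were chosen with earlier results of these data known. Named beside them were all interferon ligands, receptors and kinases found, the listed genes called in the fit without or with the block, the 3 genes of highest mean TPM in each other group, and the 10 genes of most similar pattern. Others are said to have been chosen after their values were seen, and some genes that this rule names are not reported here. Total counts ranged from 6568968 to 17948600, and counting limits cover counting error only, since reads had no molecular identifiers. The comparisons with CYST share its libraries, and the comparisons with MAT share those of MAT.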

Additional observations from a re-analysis of the deposited data

How the results depend on the processing

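Counts were low for IFIT2, with 5 to 109 reads, and in CYST 1 and 2 for MX2 (7 and 16 reads), RSAD2 (15 and 35) and ISG15 (25 and 29), which limits the precision of their Log2FC. RLE normalization and no filter on low counts changed no direction of a gene and no count of calls by more than 1.5 times. DESeq2, the replicate block and the fit of all 9 libraries each called 1 of the 9 genes (STAT2) in MAT and in MAT + COL against CYST, where the fit of 6 libraries called 0. They called 6, 6 and 2 of the further interferon genes in MAT and 7, 5 and 2 in MAT + COL, against 0 and 1. The study's DEG criteria and limma without a filter called 0 further genes in MAT + COL. The cause of these differences in counts was not tested. The DEG criteria and limma called none of the 9 genes in any comparison.

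The median Log2FC of the 9 genes turned from -0.74 to 0.31 with the block, 0.031 in limma with a pseudocount of 0.1 and 0.22 in limma without a filter in MAT, and from -0.40 to 0.22, 0.29 and 0.28 in MAT + COL, where it was also 0.28 in limma with a pseudocount of 1. MX2 turned to 1.14 with the block in MAT and to 0.90 in MAT + COL. In limma with a pseudocount of 1, of 0.1 and without a filter, MX2 was at 0.22, 0.71 and 0.22 in MAT and at 0.48, 1.04 and 0.48 in MAT + COL. USP18 in MAT + COL turned to 0.069 with the block and to 0.086, 0.12 and 0.086 in limma. The other calls of the 9 genes were the same with and without the block.

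Leaving out 1 library at a time gave 0 to 1 calls among the 9 genes in MAT against CYST and 0 in the other comparisons, and 0 calls among the further genes in all 3. The median ranged from -1.16 to 0.95 in MAT, from -0.95 to 1.04 in MAT + COL against CYST and from -0.36 to 0.19 in MAT + COL against MAT. In MAT the ranges were -2.76 to 1.30 for ISG15, -1.83 to 0.56 for MX1, -1.40 to 2.72 for MX2, -1.16 to 0.95 for USP18 and -0.15 to 0.83 for IRF9. In MAT + COL against CYST they were -2.56 to 1.78 for ISG15, -1.96 to 0.44 for MX1, -1.29 to 3.17 for MX2, -1.24 to 0.35 for IFI6, -1.08 to 1.04 for USP18, -0.13 to 3.70 for RSAD2 and -0.26 to 0.75 for IRF9. RSAD2 fell to the lower end without MAT + COL 3, IRF9 turned negative without CYST 1 or CYST 2, and the other upper ends came without CYST 3. In MAT + COL against MAT they were -0.36 to 0.83 for ISG15, -0.51 to 0.18 for MX1, -0.45 to 0.88 for MX2, -0.46 to 1.20 for IFIT2, -1.17 to 0.015 for RSAD2 and -0.35 to 0.45 for USP18. STAT2 stayed between 0.60 and 0.67 in MAT and between 0.71 and 0.89 in MAT + COL against CYST.

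The block without replicate 3 of both groups, chosen after seeing the data, called 5, 1 and 3 of the 9 genes and 14, 1 and 15 of the further genes in MAT against CYST, MAT + COL against MAT and MAT + COL against CYST, beside 15.3%, 0.368% and 19.1% of all genes, with medians of 0.84, -0.36 and 0.88. Replicate 3 was left out because of the values of these genes, so the counts are a description and no separate support. Genes that changed direction were ISG15 (1.40), MX1 (0.63), MX2 (3.10) and USP18 (1.37) in the first comparison, ISG15 (-0.47), MX2 (-0.98) and USP18 (-0.36) in the second, and ISG15 (0.93), MX2 (2.10), IFI6 (0.21) and USP18 (1.02) in the third.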
